A study of Mus musculus with 6 samples.

Results

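The 10 immediate-early stress genes Fos, Fosb, Jun, Junb, Egr1, Ier2, Atf3, Dusp1, Klf4 and Nr4a1 were followed in RNA-seq data of whole E15.5 mouse ovaries. They were chosen by name, out of 35974 gene names, to compare the handling of the pools. All transcripts that carry one of these names, 17 of 114412, were added up per gene, which gave 10 gene sums in 6 pools. Ovaries came from C57BL/6J embryos of 2 groups with 3 biological replicates each. Mothers of the PB group were given panobinostat (PB), an inhibitor of histone deacetylases (HDACs), at 5 mg/kg by oral gavage between E6.5 and E15.5. Control mothers received DMSO and water. By the labels, the dose was daily and a pool held 4 ovaries. By the methods of the study, the dose was given on alternate days and a pool held at least 8 ovaries, and the series description states 6 to 8. Each replicate is a pool of whole ovaries, so fewer cells of a type and less RNA per cell cannot be told apart. No sequencing batch is named.

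Immediate-early genes are switched on within minutes of a growth factor, a membrane depolarization or a stress, from transcription factors that are already present in the cell. Mitogen-activated protein (MAP) kinases pass the signal to SRF with its TCF partners and to CREB, which bind at the promoters of these genes. The transcripts are short-lived, and many carry AU-rich elements in the 3′ UTR that speed their decay. The same genes are known to rise when tissue is warmed, cut or dissociated before RNA is extracted, which is why their levels are looked at as a record of handling. The proteins include AP-1 subunits (FOS, FOSB, JUN, JUNB), the AP-1 related factor ATF3, the zinc finger factors EGR1 and KLF4, the nuclear receptor NR4A1, the regulator IER2 and DUSP1, a phosphatase that switches MAP kinases off.

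The members are compact genes. In the deposited mm10 annotation, Fos lies at chr12:85473901-85477269 on the plus strand with 4 exons, Jun at chr4:95049036-95052222, Junb at chr8:84976909-84978748 and Ier2 at chr8:84661331-84662852, the last 3 being on the minus strand with 1 exon each. Atf3 lies at chr1:191170296-191183333, Dusp1 at chr17:26505591-26508472, Klf4 at chr4:55527137-55532475, Fosb at chr7:19302696-19310226 and Nr4a1 at chr15:101254213-101274795. The median span was 3559.5 bases for the members and 19557 bases for all genes tested, and 9 of 10 members were below the latter. Of the 10 members, 8 had a single transcript, Fosb had 3 and Nr4a1 had 6. All 17 transcripts matched a RefSeq intron chain, and no other assembled transcript lay in these loci.

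The 3′ UTRs show the AU-rich pentamer for which this class is known. In GENCODE M21 transcripts (GRCm38, the assembly also called mm10), ATTTA on the sense strand occurred at least once in 9 of the 10 members, and in 63.8% of 18775 genes with a 3′ UTR of at least 50 bases. The density was 5.80 pentamers per kb in Dusp1, 5.53 in Nr4a1, 4.91 in Fos and 4.12 in Junb. The median was 2.89 per kb over the members and 1.16 per kb over all genes, and 7 of 10 members were above the latter. Ier2 had 0. A window of 30 bases with the pentamer in capitals is given for the 4 densest members, to show what the counted letters look like.
Dusp1 chr17:26506167-26506196, minus strand: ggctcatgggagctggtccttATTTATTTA
Nr4a1 chr15:101274701-101274730, plus strand: gATTTAtatttgtgtattttcctggATTTA
Fos chr12:85477090-85477119, plus strand: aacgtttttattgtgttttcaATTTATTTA
Junb chr8:84977139-84977168, minus strand: catattgaatataatatatttgtgtATTTA

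A RefSeq promoter window (GRCm38.p6, 250 bases before to 50 after the gene start) was matched for 8 of the 10 members, all but Egr1 and Ier2. TGACG, the core of the cyclic AMP response element that CREB binds, was present on either strand in 7 of these 8 windows and in 20.8% of 32851 windows. The full element TGACGTCA, which contains the core on both strands, occurred only in Dusp1 and in 1.79% of all windows. GCGGGGGCG, a site of EGR factors, was found in Fosb, Klf4 and Nr4a1 and in 2.91% of all windows. TATAAA, searched on the sense strand, was found in Fos and Junb and in 8.32% of all windows. The AP-1 site TGACTCA (5.20% of all windows) and the CArG box of SRF (1.63%), both searched on either strand, had no match in the 8 windows. These are letter matches and not measured binding. Sites farther than 250 bases before the start, and the promoters of Egr1 and Ier2, were not searched. The windows of Junb and Dusp1 were picked because both genes had their highest level in control 2 and their lowest in PB 3. For Junb, PB 3 was only just below PB 1. The windows are given with TGACG, its reverse complement and TATAAA in capitals.
Junb chr8:84978699-84978998, minus strand: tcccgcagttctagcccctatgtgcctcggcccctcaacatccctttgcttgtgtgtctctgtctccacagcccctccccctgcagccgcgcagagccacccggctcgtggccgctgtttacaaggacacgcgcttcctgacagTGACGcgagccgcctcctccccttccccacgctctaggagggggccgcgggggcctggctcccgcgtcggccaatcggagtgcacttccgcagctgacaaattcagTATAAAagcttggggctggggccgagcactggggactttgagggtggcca
Dusp1 chr17:26508423-26508722, minus strand: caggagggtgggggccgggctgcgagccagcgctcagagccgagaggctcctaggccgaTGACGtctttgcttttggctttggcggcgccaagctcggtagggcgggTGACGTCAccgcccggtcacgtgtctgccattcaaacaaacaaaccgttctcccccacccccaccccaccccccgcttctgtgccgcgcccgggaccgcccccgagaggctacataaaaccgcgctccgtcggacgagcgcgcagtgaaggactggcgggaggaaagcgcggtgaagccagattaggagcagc

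The deposited counts summed to between 97165644 and 125985399 per pool. The members took 13307 to 17655 counts of a pool, or 0.0132% to 0.0147%. CPM below are counts per 1000000 of a library, scaled by TMM, and a floor of 3 counts corresponds to 0.0257 to 0.0319 CPM. This floor covers counting error only. Markers of the ovary were present, with Dazl of germ cells at 191 to 304 CPM and Foxl2 of pregranulosa cells at 135 to 166 CPM. Red blood cell markers summed to 15076 to 31977 CPM in control and 18388 to 20137 CPM in PB-exposed pools.

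Every member was detected above the floor in all 6 pools. Levels of different genes are compared per length, in TPM, the length-scaled counterpart of CPM. Jun was the most abundant at 36.0 ± 0.976 TPM in control (SD, n = 3), followed by Ier2 at 22.9 ± 1.40 TPM. Dusp1 came next with 8.11 ± 0.935 TPM, then Egr1 with 4.50 ± 0.776, Klf4 with 4.32 ± 1.302 and Junb with 3.98 ± 0.0780 TPM. Nr4a1 had 2.76 ± 0.0798, Atf3 1.75 ± 0.356, Fos 1.45 ± 0.208 and Fosb 0.153 ± 0.0378 TPM. Neighbours from Egr1 to Junb and from Atf3 to Fos did not differ beyond their SDs. Fos, the classical member, was at the 30.6th percentile of the genes tested and Jun at the 83.0th.

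**Figure D1:**
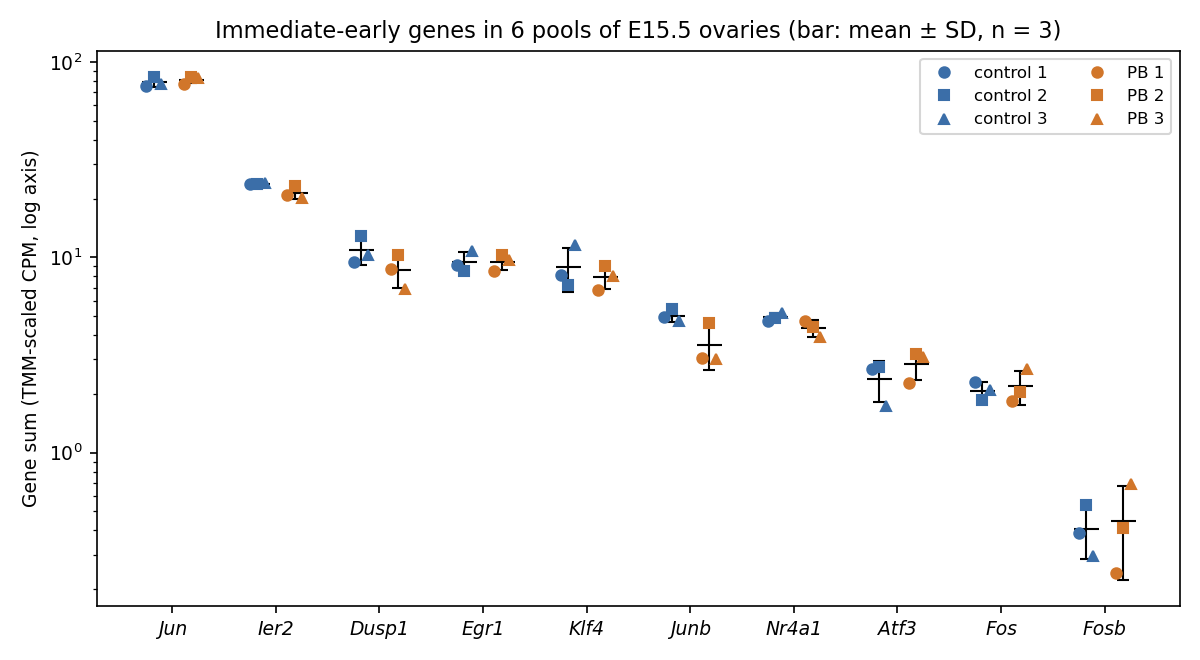
CPM of each gene sum (log axis) in the 3 control pools (blue) and the 3 PB pools (orange), ordered by TPM, with the mean and SD of each group as black bars. The groups lie on top of each other for most genes, and Junb, Ier2 and Nr4a1 have all PB pools below all control pools.

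The question put to the gene sums was whether these genes differed between control and PB-exposed pools. With edgeR's quasi-likelihood test, 0 of the 10 members passed the thresholds (a 2-fold change or more, with an FDR no higher than 0.05), while 3 of all 19435 genes tested were called (0.0154%). DESeq2's Wald test also called 0 of 10. An unadjusted p-value under 0.05 was obtained for 1 member, Junb, with either tool, where edgeR gave such a value for 4.46% of all genes. The smallest FDR of a member was 0.888. The median log2 fold change of PB against control was -0.073 over the members and 0.0020 over all genes, with 5 members above 0 and 5 below. The 95% interval of the log2 fold change was within 1 of 0, that is within a 2-fold difference, for 9 of 10 members. The exception was Fosb, the least abundant, with an interval from -0.93 to 1.19.

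**Figure D2:**
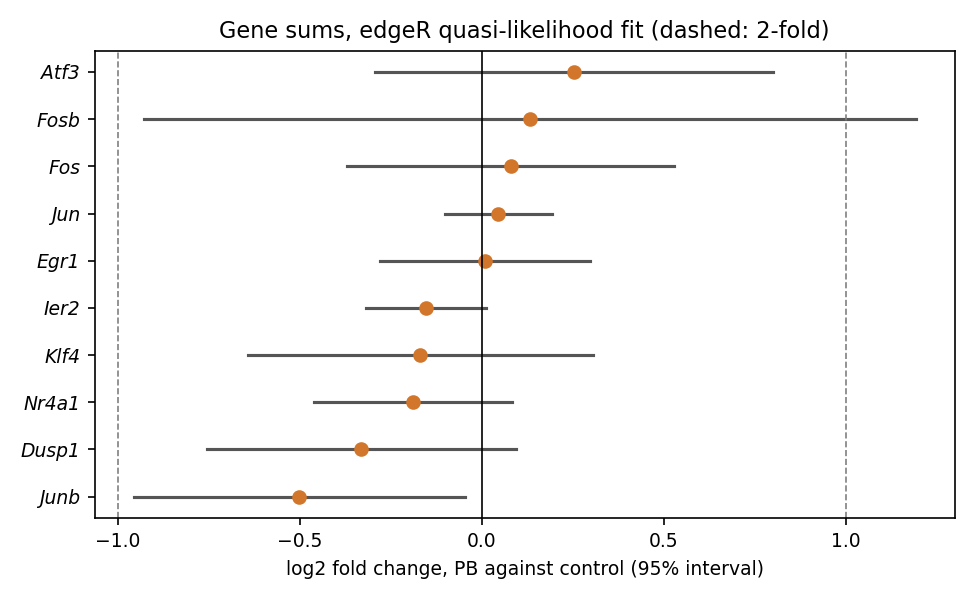
Log2 fold change of each gene sum, PB against control, with its 95% interval from the edgeR fit. Dashed lines mark a 2-fold difference, which is crossed by the interval of Fosb alone, and the interval of Junb is the one that does not include 0.

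Junb, an AP-1 subunit that often restrains JUN, had the largest difference among the members. In the order of pools 1, 2 and 3, its level was 4.94, 5.43 and 4.70 CPM for control against 3.05, 4.59 and 3.01 CPM for PB. All 3 PB pools were below all control pools, PB 2 only just. The log2 fold change was -0.50 (SE 0.19, 95% interval -0.96 to -0.047, edgeR FDR = 0.888). Groups did not overlap with PB lower in 3 of 10 members (Junb, Ier2 and Nr4a1) and in 5.61% of all genes. The opposite order was found in 0 of 10 members and in 5.10% of all genes. The difference in Junb had an unadjusted edgeR p under 0.05 but did not pass adjustment over all genes.

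Ier2, a short nuclear regulator, had the smallest spread of the members within the control group relative to its level in CPM, but not in TPM, where Junb, Jun and Nr4a1 were more even. Its levels were 23.7, 23.6 and 24.1 CPM in control and 20.9, 23.2 and 20.2 CPM in PB pools (log2 fold change -0.15, SE 0.068, edgeR FDR = 0.888). PB 2 was again the PB pool nearest to control. Nr4a1, an orphan nuclear receptor, had 4.74, 4.89 and 5.19 CPM in control and 4.73, 4.38 and 3.89 CPM in PB pools (log2 fold change -0.19, SE 0.11, edgeR FDR = 0.888). Here PB 1 was next to control 1 and PB 3 was the lowest.

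Dusp1, which ends MAP kinase signals, gave 9.46, 12.8 and 10.3 CPM in control and 8.74, 10.2 and 6.90 CPM in PB pools. The groups overlapped, because PB 2 was above control 1. The log2 fold change was -0.33 (SE 0.18, edgeR FDR = 0.888). Klf4, a zinc finger factor, was at 8.10, 7.22 and 11.5 CPM in control and 6.80, 9.002 and 8.06 CPM in PB pools (log2 fold change -0.17, SE 0.20, edgeR FDR = 0.900). Control 3 alone stood above the other pools for this gene.

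Jun, the main AP-1 partner of FOS proteins, was measured at 75.3, 83.8 and 77.0 CPM in control and 77.1, 83.7 and 82.8 CPM in PB pools. Its log2 fold change was 0.045 (SE 0.061, 95% interval -0.10 to 0.19, edgeR FDR = 0.907), the narrowest interval of the members. In TPM, Jun was 34.9 to 36.9 in control and 39.1 to 41.7 in PB pools, which do not overlap. The TPM scale also shifted the median log2 ratio of PB to control by 0.11 over 19020 genes, and relative to this shift Jun differed by 0.047. On the relative TPM scale the difference of every member kept its sign except that of Egr1, which was at -0.0010.

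Egr1, a zinc finger factor at chr18:34861207-34864956 on the plus strand, had 9.10, 8.48 and 10.7 CPM in control and 8.52, 10.3 and 9.68 CPM in PB pools (log2 fold change 0.0072, SE 0.12, edgeR FDR = 0.994). Fos gave 2.29, 1.85 and 2.08 CPM in control and 1.85, 2.05 and 2.68 CPM in PB pools (log2 fold change 0.078, SE 0.19, edgeR FDR = 0.947). For both genes the groups overlapped, and the sign of the difference changed when single pools were left out. Atf3, which is induced by stress and also through ATF4, was at 2.68, 2.74 and 1.74 CPM in control and 2.28, 3.19 and 3.07 CPM in PB pools. Its difference was within the spread between pools (log2 fold change 0.25, SE 0.23, edgeR FDR = 0.888). Fosb, the FOS relative, had 0.387, 0.540 and 0.297 CPM in control and 0.242, 0.411 and 0.688 CPM in PB pools, from 24 to 80 counts, and PB 1 and PB 3 were the lowest and highest of all pools (log2 fold change 0.13, SE 0.44, edgeR FDR = 0.966).

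To compare the handling of the pools, the members were then set against each other pool by pool. The highest pool exceeded the lowest by 1.11 times for Jun and by 2.84 times for Fosb, and in 5 of 10 members by at most 1.5 times. The median over the members of the log2 deviation from the mean of the 6 pools was 0.011, 0.076 and 0.098 for control 1, 2 and 3, against -0.16, 0.081 and -0.0041 for PB 1, 2 and 3. PB 1 was thus the pool with the lowest median, and the highest median was that of control 3. The members did not share one order of the pools. PB 3 was the lowest pool for 4 members (Junb, Ier2, Dusp1 and Nr4a1) and the highest for Fos and Fosb. Control 3 was the highest for Egr1, Ier2, Klf4 and Nr4a1 and the lowest for Atf3. Of all 19435 genes, PB 3 was the lowest pool for 4242 and the highest for 4312. Control 3 was the highest for 2859 of them and the lowest for 2738. Summed over the members, levels ranged from 134 CPM in PB 1 to 151 CPM in control 2, of which Jun made up 52.2% to 58.8%. Without Jun, the sum was 57.1 CPM in PB 1 and 58.1 CPM in PB 3, against 65.4 to 70.6 CPM in the other 4 pools.

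**Figure D3:**
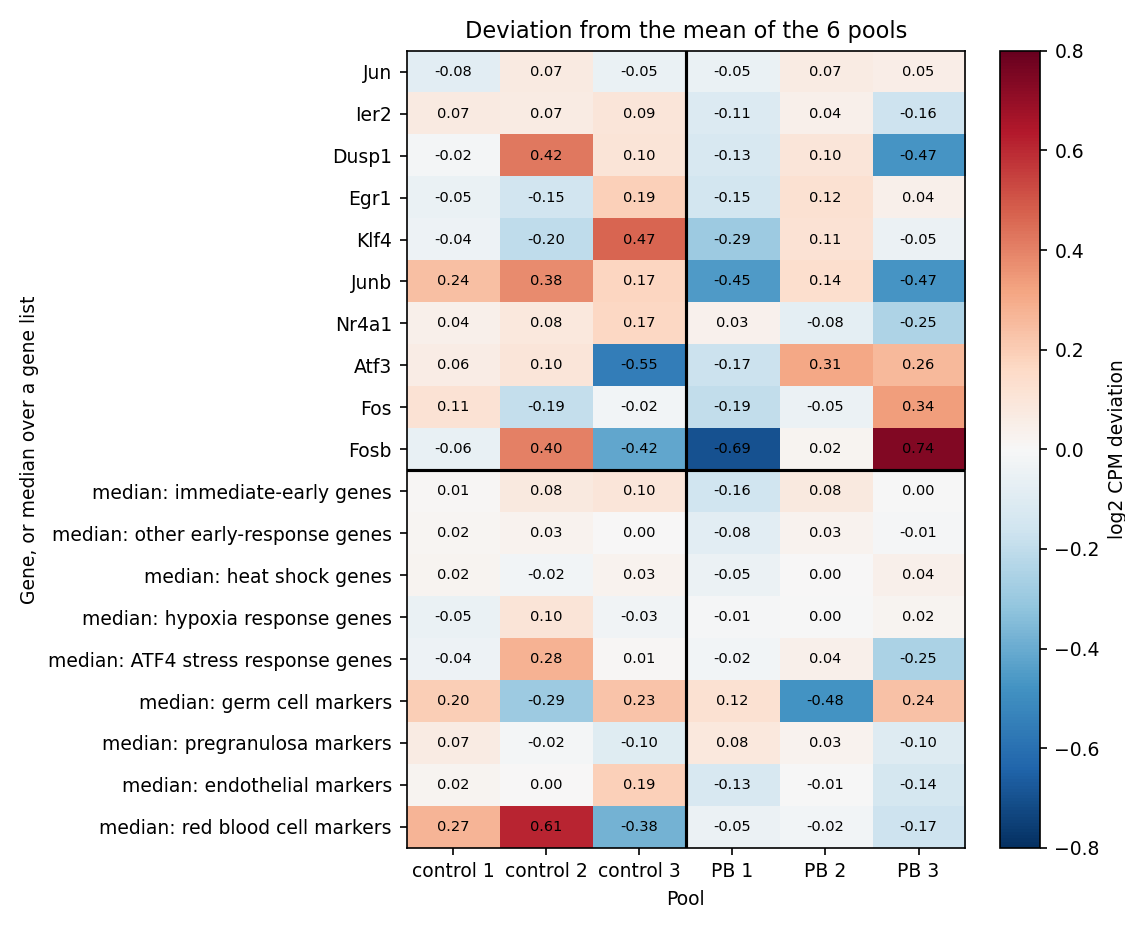
Log2 deviation of each gene from its mean over the 6 pools (upper rows), and the median of this deviation over gene lists (lower rows). Junb is low in PB 1 and PB 3, and the median over the members is lowest in PB 1 at -0.16. The median over the germ cell markers is lowest in control 2 and PB 2.

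The spread between pools was also read as the biological coefficient of variation (BCV) that edgeR estimates for each gene. It ranged from 9.06% for Jun and 9.97% for Ier2 to 38.5% for Fosb. BCV depends on the level, so it was divided by the trend of genes of the same level. The ratio was 0.64 for Nr4a1, 0.67 for Ier2, 0.68 for Jun, 0.73 for Fos and 0.75 for Egr1, and it reached 1.00 for Klf4 and 1.02 for Fosb. A BCV below the trend was found for 8 of 10 members (80.0%) and for 15739 of all 19435 genes (80.98%). The share below the trend was thus close to that of all genes.

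**Figure D4:**
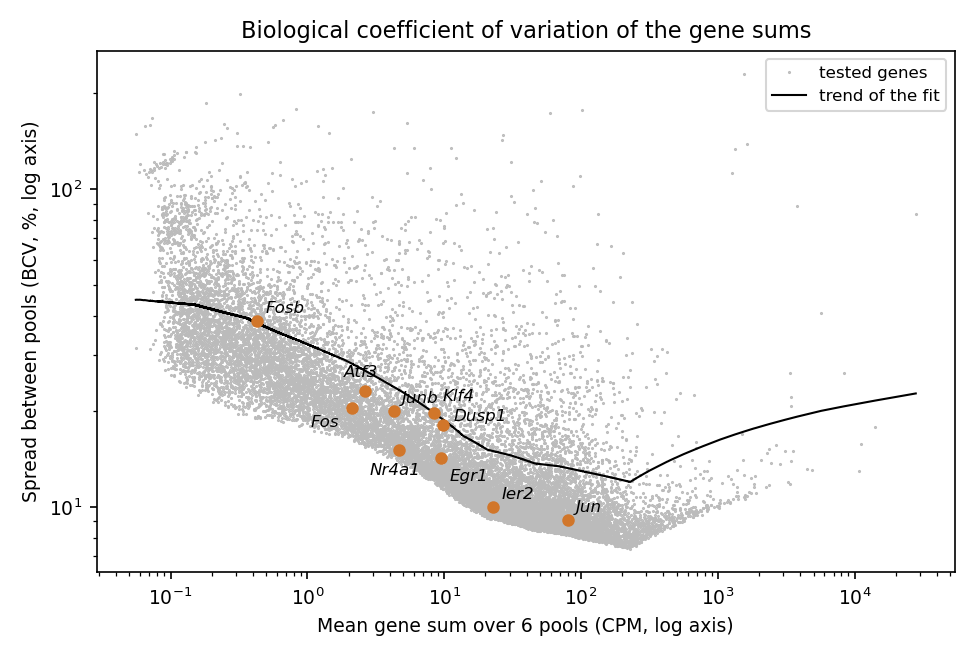
BCV of the gene sums (%, log axis) against the mean CPM over 6 pools (log axis), for all genes tested (grey), with the trend of the fit (line) and the 10 members (orange, named). The members lie within the cloud, with Fosb and Klf4 on the trend and the others below it.

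Values of cell type markers are set beside those of the members, and none of these markers was called by edgeR. Of all 19435 genes, 3 were called (0.0154%). An unadjusted p under 0.05 with PB lower was found for 2 germ cell, 2 endothelial, 1 macrophage, 1 red blood cell and 1 Sertoli marker. With PB higher, it was found for 1 interstitial and perivascular marker. The share over all genes was 4.46% in either direction. Endothelial markers were below 0 in 7 of 8 genes (median log2 fold change -0.15) and summed to 378 to 413 CPM in control and 357 to 379 CPM in PB pools, with none at 0. Their median deviation was -0.13 in PB 1, -0.0060 in PB 2 and -0.14 in PB 3, and Junb deviated by -0.45, 0.14 and -0.47 in these pools. In control 1, 2 and 3, the endothelial median was 0.024, 0.0011 and 0.19, and Junb deviated by 0.24, 0.38 and 0.17. The endothelial median was thus highest in control 3, where Junb was the lowest of the control pools. Germ cell markers were low in control 2 and PB 2, at median deviations of -0.29 and -0.48, whereas the members had 0.076 and 0.081 there. The germ cell list was not uniform. PB 2 was the lowest pool for 5 of its 8 genes. Dppa3 (12.2, 12.5 and 12.8 CPM) and Pou5f1 (17.0, 17.6 and 18.7 CPM) were about equally low in PB 1, 2 and 3. Log2 fold changes of the list ran from -0.58 to 0.34, with 6 below 0 and 2 above. All 8 red blood cell markers had a log2 fold change below 0 (median -0.29), and their median deviation was highest in control 2 at 0.61. Macrophage markers summed to 76.7 to 105 CPM in control and 69.1 to 82.5 CPM in PB pools. The range of these sums came largely from 1 gene, Lyz2, at 14.6, 36.7 and 23.7 CPM in control and 13.0, 15.9 and 14.6 CPM in PB pools. The median deviation of the macrophage markers was lowest in PB 1 at -0.25. There 7 of 8 of them had their lowest value, as did 2977 of all 19435 genes, and PB 1 was also the pool with the lowest median of the members. The medians were -0.0021 for pregranulosa, 0.039 for interstitial and perivascular, -0.11 for mesonephric, -0.051 for Sertoli and 0.079 for Leydig and adrenal markers. The smallest FDR of any of these marker lists was 0.888 in the edgeR fit. Their part in the values of the members was not tested.

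Other early-response genes outside the members, a list of 39 of which 38 were tested, had no gene called by edgeR. In this list, 2 had an unadjusted p under 0.05 with PB lower and 0 with PB higher, and 5 had all PB pools below control and 0 above. Over all genes, the shares were 4.46% for an unadjusted p under 0.05 in either direction, 5.61% for all PB pools below control and 5.10% for all above. The median log2 fold change was -0.046. The median deviation was -0.082 in PB 1, again the lowest of the pools. The lowest value was in PB 1 for 13 of the 38 genes and in PB 3 for 10. Over all 19435 genes, it was in PB 1 for 2977 and in PB 3 for 4242. Sgk1, a kinase induced by serum and glucocorticoids, was at 12.5, 13.1 and 14.3 CPM in control and 10.6, 11.2 and 11.5 CPM in PB pools. Its difference did not pass adjustment (log2 fold change -0.26, SE 0.079, edgeR FDR = 0.888). Dusp5, a phosphatase of ERK, had 13.0, 9.81 and 12.1 CPM in control and 9.19, 9.16 and 10.2 CPM in PB pools (log2 fold change -0.29, SE 0.12). Gadd45g, a growth arrest gene, differed by -0.21 on the log2 scale (SE 0.091) and Nfkbiz, a regulator of NF-kappaB, one of -0.36 (SE 0.17), and for both the groups did not overlap. Arc, the activity-regulated gene of neurons, had 0.50 (SE 0.30) with overlapping groups.

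Of the kinases and factors upstream, the SRF, TCF, CREB and MAP kinase list, all 23 genes were tested and none was called by edgeR. An unadjusted p under 0.05 was found for 2 genes with PB higher and 0 with PB lower, all PB pools were above control for 5 genes and below for 0, beside the same shares over all genes (4.46% for the p in either direction, 5.10% above and 5.61% below). The median log2 fold change was 0.041. Crem, a CREB relative that is itself inducible by cyclic AMP, was measured at 11.5, 11.7 and 11.7 CPM in control and at 14.4, 11.99 and 14.8 CPM in PB pools. PB 2 was again nearest to control, and the difference did not pass adjustment (log2 fold change 0.24, SE 0.095, edgeR FDR = 0.888). Atf2, a partner of JUN, had a log2 fold change of 0.10 (SE 0.043), and Map2k4, which activates JNK and p38, one of 0.078 (SE 0.043). Rps6ka1, a ribosomal S6 kinase, and Atf1, a CREB relative, had -0.12 (SE 0.067) and -0.092 (SE 0.056) with overlapping groups.

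The heat shock, hypoxia and ATF4 stress programmes were checked in the same fit, and none of their genes was called by edgeR or had an unadjusted p under 0.05. Over all 19435 genes, the shares were 0.0154% and 4.46%, and in lists of 11 to 14 genes a count of 0 is near these shares. The 12 heat shock genes had a median log2 fold change of 0.00016, with 6 above and 6 below 0. Among these, Hspb1, a small heat shock protein, had 0.24 (SE 0.12) and Hspe1, a mitochondrial chaperonin, -0.12 (SE 0.062). The median over 14 hypoxia genes was -0.035, with Car9, a carbonic anhydrase induced by low oxygen, at 0.32 (SE 0.16) and the hexokinase Hk2 at 0.12 (SE 0.067). The 11 genes of the ATF4 response had a median of -0.17, and 10 of them were below 0. Trib3, a pseudokinase of this response, was at 3.80, 11.9 and 6.46 CPM in control and 4.86, 3.51 and 2.95 CPM in PB pools (log2 fold change -0.97, SE 0.42, edgeR FDR = 0.888). Asns, the asparagine synthetase, was at 98.4, 141 and 103 CPM in control and 87.9, 105 and 70.0 CPM in PB pools (log2 fold change -0.38, SE 0.19). Both were highest in control 2 and lowest in PB 3, as were Junb and Dusp1, although Junb was nearly level in PB 3 (3.01 CPM) and PB 1 (3.05 CPM). Of all 19435 genes, control 2 was the highest pool for 3454 and PB 3 the lowest for 4242.

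At the transcript level, Fosb differed in which transcript received its counts. XM_006539544.3 had 0 counts in all 3 control pools and 23, 22 and 56 counts in PB 1, 2 and 3, which is at least 10.8-fold higher against a floor of 3 counts per library. XM_006539543.2 had 38, 63 and 28 counts in control and 1, 20 and 24 counts in PB pools, and NM_008036.2 had 0 in every pool. The first thus held 0% of the Fosb counts in control and 69.2% in PB pools, whereas the gene sum did not differ beyond its spread. With edgeR, XM_006539544.3 had an FDR of 0.420, so it was not called, whereas DESeq2 called it at an FDR of 2.4e-05. Over all alternatives its FDR ranged up to 1. Of the 17 transcripts of the members, 14 were tested with edgeR, 0 were called and 1, this one, had an unadjusted p under 0.05, beside 0.0332% and 3.56% of all 51227 transcripts.

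The annotated transcripts of Fosb show what separates them. XM_006539544.3 splices a stretch of 140 bases out of the last exon, chr7:19305007-19305146, that XM_006539543.2 and NM_008036.2 keep. This stretch is within the coding sequence of full-length Fosb (GENCODE M21, GRCm38), and 140 is not a multiple of 3, so that its removal shifts the reading frame. Removal of a stretch inside the last exon is known as the event that produces ΔFosB, a truncated and stable FOSB protein studied in the brain. Both transcripts also differ at the 5′ end, where XM_006539543.2 starts upstream at 19310226 and has an additional intron and XM_006539544.3 starts at 19309932. They share 3462 exonic bases, and 61 bases belong to XM_006539544.3 alone. Reads over the remaining exons cannot tell them apart, and the counts of each rest on the division that StringTie made. The 140 bases are given on the minus strand, 5′ to 3′, with the first and last 2 bases of the removed stretch in capitals, which are the usual GT and AG of an intron.
Fosb chr7:19305007-19305146, minus strand: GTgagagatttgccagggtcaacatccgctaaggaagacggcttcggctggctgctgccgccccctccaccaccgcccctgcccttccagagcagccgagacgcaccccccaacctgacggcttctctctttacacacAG

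Nr4a1 also had its counts divided differently. Its transcript NM_010444.2, which starts with an exon at 101266846, had 339, 541 and 234 counts in control and 282, 208 and 161 counts in PB pools, or 73.0% and 47.6% of the gene. XM_006520456.1, which starts upstream at 101254213, had 101, 0 and 55 counts in control and 158, 160 and 232 counts in PB pools, or 10.2% and 40.2%. Neither passed the edgeR test (log2 fold change -0.75, SE 0.40, and 1.68, SE 1.66, both with FDR = 1.00), and another transcript, XM_017316436.1, had 188 counts in control 3 against 7 to 65 in the other pools. These 3 transcripts share 2351 bases of exon or more, and differ in their first exons.

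**Figure D5:**
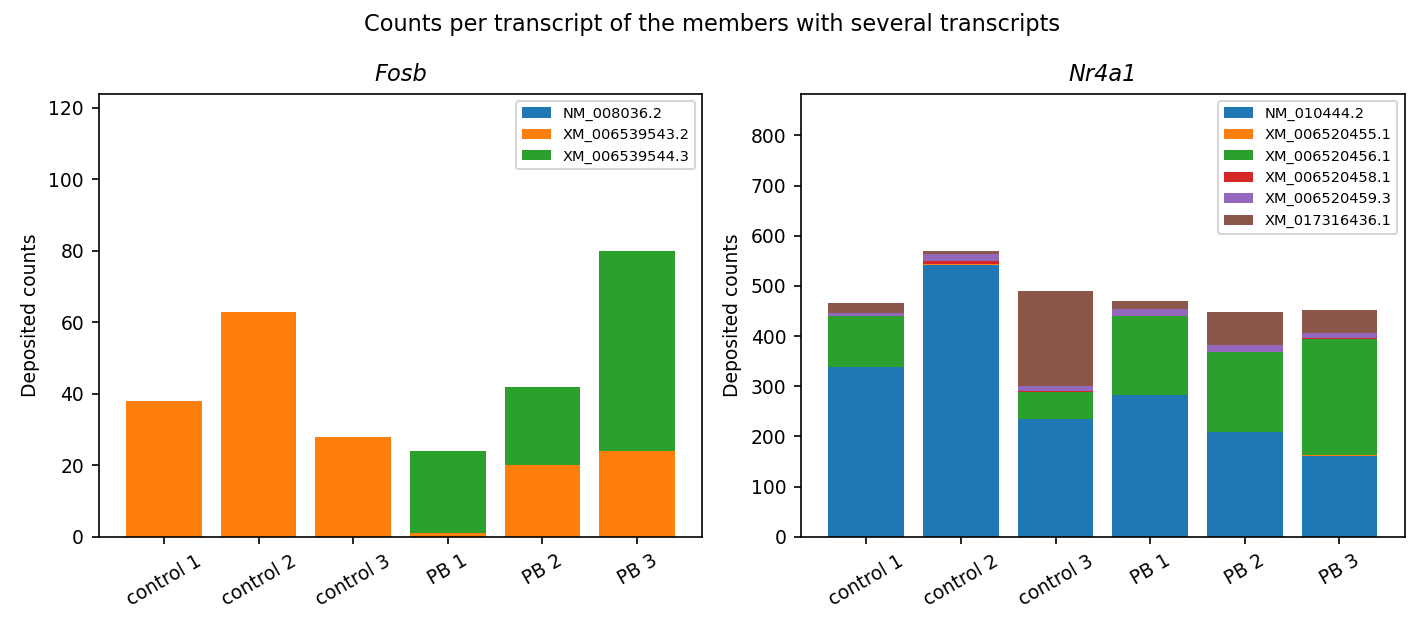
Deposited counts of each transcript of Fosb (left) and Nr4a1 (right) in the 6 pools, stacked. XM_006539544.3 (green, left) has 0 counts in the control pools and 22 to 56 in the PB pools. XM_006520456.1 (green, right) has 0 to 101 and 158 to 232. The total height of the bars overlaps between the groups for both genes.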

How the data were processed

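The study was read from strand-specific RNA-seq of 3 control and 3 PB pools. Groups follow the treatment label, although the series description speaks of exposed mice for the libraries of both groups. Reads were aligned by the authors with HISAT2 2.1.0 (mm10). They assembled transcripts with StringTie 1.3.5 on RefSeq, and deposited raw counts per transcript that prepDE derives from coverage. The authors' own fold changes and p-values (DESeq2 1.30.0) and normalized values were not used. A gene name was missing for 1493 transcripts with 3.05% to 4.49% of the counts, which entered no gene sum.

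Counts were summed per gene name, scaled by TMM, filtered by filterByExpr (minimum count 10, minimum total 15) and tested with edgeR 4.0.16 in R 4.3.3 (limma 3.58.1), with Benjamini-Hochberg adjustment over 19435 genes or 51227 transcripts. SE is the log2 fold change divided by the square root of F, and ± is SD. TPM used exon lengths of the deposited annotation. DESeq2 1.42.0 was the alternative tool. Other alternatives were its size factors, no filter, a stricter filter (10 counts in all pools of a group), a replicate block, known transcripts only, StringTie loci, an FDR without fold threshold and each pool left out.

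The members, lists and tests were chosen with earlier results of these data known. All members were named, with the 5 genes of smallest p from the early-response and upstream lists and 2 from each stress list, the 5 genes most alike over pools among those of at least 5 CPM, and the transcripts with an unadjusted p under 0.05 or with one group at or under 3 counts and at least 10 on average in the other. The Nr4a1 transcripts, Dazl and Foxl2 were named after their values were seen.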

Additional observations from a re-analysis of the deposited data

How the results depend on the processing

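The members were called in 0 of 10 cases under every alternative, including DESeq2 and each pool left out. Over all genes, 3 were called with edgeR, 11 with DESeq2, 8 with known transcripts only, 5 without a fold threshold, 0 with the replicate block and 3 to 9 with 1 pool left out. Over all transcripts, 17 were called, with 1172 by DESeq2, 39 under the stricter filter, 0 with the replicate block and 0 to 19 with 1 pool left out, and DESeq2 called 1 transcript of the members, that of Fosb. The sign of the log2 fold change was the same in 80 of 80 comparisons under the other alternatives and in 51 of 60 with 1 pool left out. Part of the former count was fixed in advance. An FDR without fold threshold reuses the main fit, and known transcripts only and StringTie loci use the same counts of the members. With 1 pool left out, the log2 fold change ranged from -0.093 to 0.18 for Fos and -0.32 to 0.42 for Fosb. The range was -0.068 to 0.10 for Egr1 and -0.31 to 0.048 for Klf4, and these 4 signs were not stable.

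PB 2 decided the unadjusted p-values most. Without it, Junb was at -0.73 (edgeR FDR = 0.136), Ier2 at -0.21 (FDR = 0.252) and Dusp1 at -0.47 (FDR = 0.365), all 3 with an unadjusted p under 0.05, and 2441 of 19821 genes (12.3%) had an unadjusted p under 0.05, against 4.46% with all pools. Junb lost its unadjusted p under 0.05 without control 1, control 2, PB 1 or PB 3. The cause was not tested.

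Replicates share a number in the labels. Deviations of same-numbered pools correlated at 0.093, 0.15 and -0.018. Some pools, such as control 2 and PB 2, correlated best with their own number, and others did not. With so few pools per group, these values cannot decide whether the numbers pair the pools. With the replicate block, 0 members were called, and Junb (edgeR FDR = 0.784) and Dusp1 (FDR = 0.784) had an unadjusted p under 0.05, as did 1091 of all 19435 genes (5.61%). Fosb, at 24 to 80 counts per pool, is the member for which depth limits the comparison most.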

Other observations

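Genes outside the lists were compared over the 6 pools with the mean z-score of the members. The members did not share one order of the pools, so this mean does not stand for each of them. The closest were Rangrf, a Ran-binding release factor (Pearson r = 0.999 between its log2 CPM and this mean), and Vcpkmt, a lysine methyltransferase of VCP (0.993). Next came Ugcg, the glucosylceramide synthase (0.987), Edem3, which acts in degradation of misfolded glycoproteins (0.982), and Bard1, the partner of BRCA1 (0.981). Their lowest pool was PB 1 in every case. This follows from the selection, because the mean z-score was lowest in PB 1, at -0.81. Rangrf was at 13.1, 13.9 and 13.8 CPM in control and 11.0, 14.1 and 12.6 CPM in PB pools. Ugcg was at 75.8, 88.7 and 79.9 CPM in control and 40.2, 82.5 and 64.2 CPM in PB pools, and Bard1 at 20.3, 21.8 and 22.0 CPM in control and 11.3, 22.7 and 19.1 CPM in PB pools. The range of Edem3 was small, 96.2 to 100.4 CPM, and 100.1 to 100.4 CPM without PB 1 and PB 3. These 5 were picked as the highest of 12042 genes, of which 115 had r of at least 0.9 over 6 pools that share the same libraries, so the values are a description. Without the 2 pools farthest from the median of the members, PB 1 and PB 3, r was 0.994 for Rangrf, 0.915 for Vcpkmt, 0.744 for Ugcg, 0.958 for Edem3 and 0.985 for Bard1.

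Some markers of neighbouring tissue stood apart in single pools. Cdh16, a cadherin of mesonephric and kidney epithelium, was at 14.8 CPM in control 3 and 1.90 to 3.88 CPM in the other pools, and Klf4 was highest in the same pool. Hsd3b1, a steroidogenic enzyme, was at 14.8 CPM in PB 1 and 39.0 to 45.6 CPM in the other pools. PB 1 was also the pool in which the median of the members was lowest. The other Leydig and adrenal markers did not share this. Of the 6 tested, 2 had their lowest value in PB 1 (Hsd3b1 and Cyp17a1) and 2 their highest (Star at 9.68 CPM and Cyp11a1 at 3.69 CPM). The part of these markers in the values of the members was not tested. Cyp11b1 and Cyp21a1, defining genes of the adrenal cortex, had 6 and 19 counts over all 6 pools.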
